A study of Rattus norvegicus with 6 samples.

Results

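The integrins and the focal adhesion proteins were followed in primary rat ovarian granulosa cells, the somatic cells that surround the oocyte in the follicle. The set held 42 of the 17525 genes in the deposited table. They were chosen by name, with earlier results of these data known. The rule took every gene whose symbol is that of an integrin alpha or beta chain, and 15 named proteins of the adhesion plaque. That gave 18 alpha subunits, 8 beta subunits, the 15 plaque proteins, and Itgbl1, which matched the name pattern but encodes a secreted protein related to beta subunits and not a receptor chain. The series holds libraries of 2 groups, called ATR and Control, with 3 libraries in each. The title of the series names long atrazine exposure. Atrazine is a triazine herbicide, and the labels do not spell out ATR, its dose or its duration. All groups share the same source of cells: Sprague-Dawley ("SD") rats aged 21 days, given 60 IU of PMSG, a gonadotropin that drives follicle growth, with ovaries removed 48 h later, digested with pancreatic enzyme, filtered and cultured. The labels do not say whether libraries stem from separate animals or cultures, so p-values measure only the spread between these libraries, which may be technical. The columns used here are those of ATR 1, ATR 2 and ATR 3. Control is not analysed here, and nothing below is an effect of an exposure.

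Integrins are receptors made of 1 alpha and 1 beta chain that span the membrane and hold cells to the matrix or to other cells. The alpha chain largely sets which ligand is bound, and most beta tails recruit talin and kindlin, which switch the receptor on. Around them a focal adhesion assembles: the complex of ILK, PINCH and parvin, the actin linkers vinculin, zyxin and tensin, and the kinases FAK and Src with their scaffolds paxillin and p130Cas. In the ovary, follicle cells rest on a laminin and collagen IV basement membrane, and cultured cells spread on fibronectin that they deposit or take from serum.

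The ATR libraries held 18677194 to 19170515 reads assigned to genes. Levels are given in TPM, which corrects for transcript length and library size, so that genes can be set side by side. Errors are SDs over the 3 libraries. Of the granulosa cell markers, Gja1, Inha, Inhba, Gata4, Nr5a1 and Foxl2 were present, whereas the gonadotropin receptor Fshr stood at 7.38, 5.25 and 4.77 TPM, and Cyp19a1 and Amh stayed below 1 TPM in each library. Markers of surface epithelium summed to 2305, 2146 and 2223 TPM, and those of stroma and of smooth muscle to 439 TPM or more per list in each library. These are bulk samples, in which fewer cells of a type and less RNA per cell cannot be told apart.

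The adhesion genes were broadly and strongly expressed. Of the 42 members, 37 (88.1%) had a mean of at least 1 TPM, against 71.4% of all genes, and 15 (35.7%) had at least 100 TPM, against 10.7% of all genes. The median over members was 51.9 TPM, against 10.1 TPM over all genes. All 15 plaque proteins reached 1 TPM and 10 of them reached 100 TPM. Of the 26 receptor subunits, 21 reached 1 TPM and 5 reached 100 TPM. Together the members held 0.574%, 0.543% and 0.556% of all TPM in ATR 1, ATR 2 and ATR 3. Their share of assigned reads was higher, at 1.11% ± 0.0250 (SD, n = 3). Each TPM of a member stood for more reads, with a median of 37.7 reads per TPM over the 37 members at 1 TPM or more, against 21.7 over all 12518 such genes. This ratio follows transcript length.

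**Figure D1:**
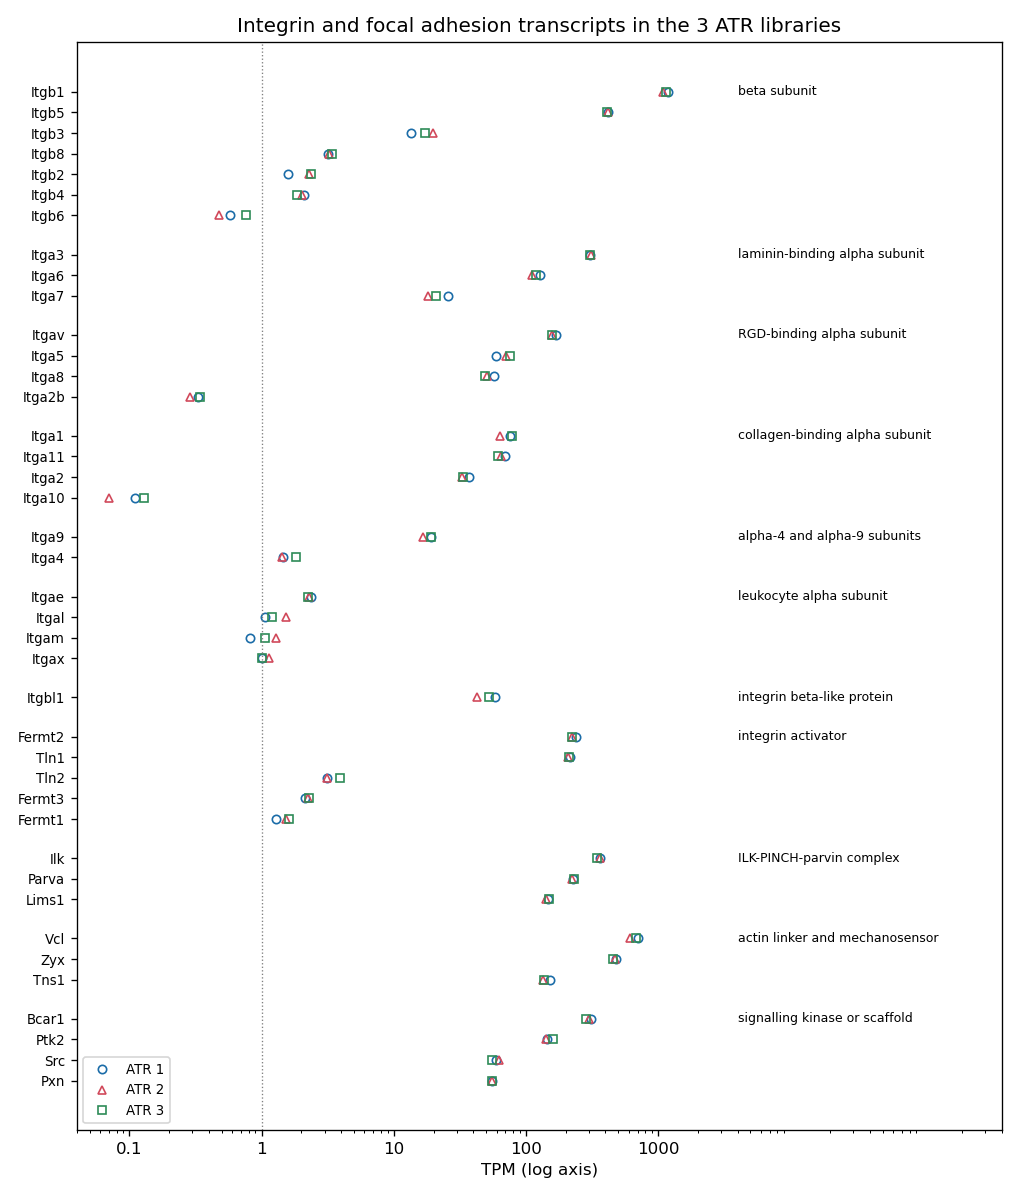
TPM on a log axis (x) of each member with a mean of at least 0.05 TPM (y), grouped by role, with a symbol for each of ATR 1, ATR 2 and ATR 3. Itgb1 lies at 1083 to 1180 TPM at the top, the leukocyte subunits lie around the dotted line at 1 TPM, and the symbols of most genes overlap.

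A single beta chain dominated. Itgb1, the partner of most alpha subunits, had 1180.2, 1083 and 1145 TPM in ATR 1, ATR 2 and ATR 3, and ranked 134 among all genes by its mean of 1136 ± 49.0 TPM. It held 71.9% ± 1.11 (SD, n = 3) of the summed beta subunit TPM. Itgb5, which pairs with the alpha v chain in a vitronectin receptor, had 419, 422 and 413.5 TPM and held 26.5% ± 0.882. These 2 chains left little of the sum for the other 6.

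Itgb3, the other well-known partner of alpha v and the beta chain of the platelet fibrinogen receptor, had 13.5, 19.7 and 17.2 TPM in ATR 1, ATR 2 and ATR 3. Itgb5 exceeded it by 31.0, 21.4 and 24.0 times. Itgb8, an alpha v partner that activates latent TGF-beta, stood at 3.30 ± 0.121 TPM. Its reads were 207, 247 and 261, and it was the only member at 1 TPM or more whose reads per TPM varied by over 5% between libraries (8.24%, with library depth taken out), so its level in reads and its level in TPM do not order the libraries with the same distances. Itgb4, the hemidesmosome chain of epithelia, stood at 2.00 ± 0.123 TPM and Itgb2, the leukocyte chain, at 2.08 ± 0.434 TPM. Their ranges overlapped, so these neighbours in the order were not separated. Itgb6, an epithelial alpha v partner, was at 0.607 ± 0.142 TPM from 23, 20 and 28 reads, and Itgb7, a lymphocyte chain, had 1, 1 and 0 reads. No share of Itgb7 can be read from so few reads.

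The alpha subunits summed to 953.5, 904 and 930.0 TPM in ATR 1, ATR 2 and ATR 3, and the beta subunits to 1621, 1533 and 1584 TPM. Without Itgav, which pairs with several beta chains, the alpha subunits known to pair with Itgb1 summed to 762 ± 19.1 TPM, or 0.671 ± 0.0123 (SD, n = 3) of the Itgb1 level. These are transcript levels and do not count receptors at the surface.

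Laminin receptors were the largest alpha class, with 48.2% ± 0.266 of alpha subunit TPM (SD, n = 3). Itga3, which binds laminins of the basement membrane, led all alpha chains with levels of 304, 309 and 306 TPM. Itga6, another laminin receptor chain, had 128, 111 and 119.5 TPM, and Itga7, best known from muscle, had 25.7, 18.3 and 21.0 TPM. Itga3 exceeded Itga6 by 2.37, 2.79 and 2.56 times in ATR 1, ATR 2 and ATR 3.

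Chains that recognise the Arg-Gly-Asp motif held 30.5% ± 0.373 of alpha subunit TPM (SD, n = 3). Itgav was the highest of them, and reached 169.7, 156 and 157 TPM in ATR 1, ATR 2 and ATR 3. Itga5, the classical fibronectin receptor chain, had 59.4, 71.1 and 76.1 TPM, so Itgav exceeded it by 2.86, 2.196 and 2.07 times. Itga5 was lowest in ATR 1, where Itgav was highest. Itga8, whose ligand nephronectin (Npnt) was also expressed at 50.2 ± 1.52 TPM, had 57.7, 51.1 and 49.3 TPM. Itga2b, the platelet fibrinogen receptor chain, stood at 0.320 ± 0.0265 TPM. The platelet marker list summed to 8.69, 10.5 and 4.91 TPM, nearly all of it Pf4.

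Collagen receptor chains held 18.6% ± 0.601 of alpha subunit TPM (SD, n = 3). Itga1, which favours collagen IV, had 76.5, 64.0 and 77.8 TPM in ATR 1, ATR 2 and ATR 3. Itga11, a receptor for fibrillar collagen on fibroblasts, had 69.1, 65.2 and 61.9 TPM, and Itga2, which binds collagen I, had 36.9, 33.0 and 33.6 TPM. Itga10, the cartilage chain, had 5, 3 and 6 reads. In the order of alpha levels, Itga1, Itga5 and Itga11 were not separated from their neighbour by their ranges, whereas Itga3, Itgav, Itga6 and Itga1 were separated from one another.

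The remaining alpha chains, apart from Itga9, were low. Itga9, which binds tenascin-C among others, had 19.2, 16.7 and 19.0 TPM and overlapped in range with Itga7. Itga4, the chain for VCAM-1 and fibronectin on leukocytes, stood at 1.57 ± 0.226 TPM. The leukocyte chains Itgae, Itgal, Itgam and Itgax stood between 1.05 and 2.29 TPM, and Itgad had 0, 1.03 and 0 estimated reads. Together the 5 leukocyte chains held 0.612% ± 0.0731 of alpha subunit TPM (SD, n = 3). Of the 10 measured leukocyte markers, 8 had a mean of at least 1 TPM, and they summed to 119, 144 and 144 TPM. The pan-leukocyte gene Ptprc was at 0.850 ± 0.147 TPM. Most of the difference in the sum lay in Lyz2 (60.2, 78.6 and 83.2 TPM), and the other 9 summed to 59.1, 65.6 and 60.8 TPM. Itgb2 had 44.7, 65.3 and 68.5 estimated reads in ATR 1, ATR 2 and ATR 3, and its libraries were not separated by the chi-square test across libraries (adjusted p = 0.167). The part of such cells in the leukocyte subunit values was not tested.

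**Figure D2:**
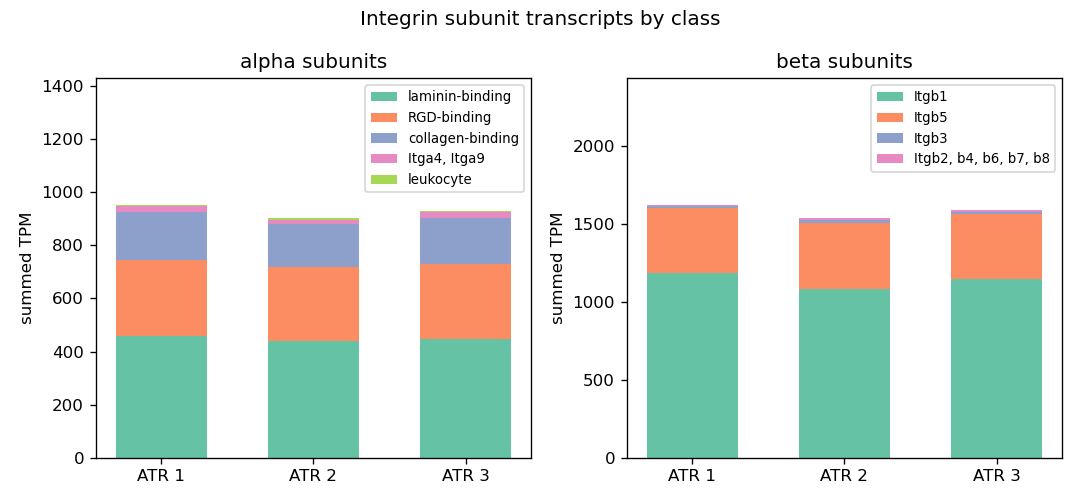
Summed TPM (y) of the alpha subunits by ligand class (left) and of the beta subunits (right) in ATR 1, ATR 2 and ATR 3 (x), stacked from 0. Laminin-binding chains make up 48.2% of the alpha sum on average, and Itgb1 makes up 71.9% of the beta sum.

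In the plaque, 1 paralogue of each activator family carried nearly all transcript. Tln1 (talin 1, which binds beta tails and actin) had 217, 208 and 211 TPM in ATR 1, ATR 2 and ATR 3, and Tln2 had 3.11, 3.15 and 3.89 TPM. Tln1 exceeded Tln2 by 69.9, 65.9 and 54.2 times. Of the kindlins, which bind the beta tail beside talin, the broadly expressed Fermt2 had 239, 223 and 225 TPM, against 2.22 ± 0.0611 TPM for the blood cell form Fermt3 and 1.47 ± 0.161 TPM for the epithelial form Fermt1 (SD, n = 3). The ratio of Fermt2 to Tln1 was 1.08 ± 0.0168.

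The core of ILK, PINCH and parvin, which ties beta tails to actin, varied little between libraries for its 3 members, though their levels differed. Ilk, a pseudokinase, had 361, 366 and 346 TPM in ATR 1, ATR 2 and ATR 3. Parva (alpha-parvin) had 227, 225 and 231 TPM, and Lims1 (PINCH-1) had 148, 142 and 150.4 TPM. The 3 sums of the complex were 736, 732 and 727 TPM, an SD of 4.67 around a mean of 732 TPM. Fermt2 and Parva were neighbours in level with overlapping ranges, as were Ptk2, Lims1 and Tns1.

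Vcl (vinculin, which reinforces the talin to actin link under force) was the most abundant plaque transcript, and had 709.8, 609.6 and 681 TPM in ATR 1, ATR 2 and ATR 3. Zyx (zyxin, which gathers at strained actin fibres) had 479.7, 472 and 454 TPM, and Tns1 (tensin 1, found at fibrillar adhesions) had 152, 136 and 136 TPM. The ratio of Vcl to Tln1 was 3.27, 2.94 and 3.23 in the 3 libraries. The lowest of these ratios was that of ATR 2.

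Among the signalling members, the scaffold Bcar1 (p130Cas, which is phosphorylated when stretched) had 311.5, 298 and 285 TPM in ATR 1, ATR 2 and ATR 3. Ptk2, which encodes focal adhesion kinase, had 145, 143 and 160.5 TPM. Src, its partner kinase, had 59.8, 62.8 and 55.7 TPM, and the scaffold Pxn (paxillin) had 55.4, 55.4 and 55.6 TPM. Ptk2 exceeded Src by 2.53 ± 0.315 times and Bcar1 exceeded Pxn by 5.37 ± 0.252 times (SD, n = 3). The nearly equal Pxn levels had a chi-square adjusted p of 0.764.

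Differences between the 3 libraries were then tested for each gene of the table with at least 30 reads. The chi-square test asks whether a gene's reads depart from the scaled library sizes by more than counting noise, with Benjamini-Hochberg adjustment over all genes and a threshold of 0.05. It compares libraries and not conditions. It counts duplicated reads as independent, since no molecular identifiers are described. Of 39 members tested, 18 passed (46.2%), against a background of 23.2% of 13309 genes. The test finds smaller differences where there are more reads: among genes with at least 3000 reads, 15 of 24 members passed (62.5%), against 39.9% of 4030 genes. Fewer members passed with 1 library left out, namely 11 without ATR 1, 11 without ATR 2 and 15 without ATR 3, against backgrounds of 11.9%, 14.6% and 17.3%. With every chi-square divided by 2.44, which brings the median gene tested to counting noise, 9 members passed (23.1%), against 8.09% of genes. The scaled test still finds smaller differences where there are more reads. Passing it therefore does not mean a spread above that of the typical gene.

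The differences were small. None of the 39 members tested passed with a ratio of highest to lowest library of at least 1.5, whereas 5.41% of all 13309 genes tested did. Whether they passed or not, 2 of the 39 members tested (5.13%) had that ratio, Itgam and Itgb2, against 11.7% of all genes tested. Among the 18 members that passed, the ratio was under 1.1 for 7 and at least 1.3 for 4. Over the 38 members averaging 1 CPM or more (CPM being reads scaled to library size), the median SD of log2(CPM + 0.5) was 0.083, against 0.082 over 12591 genes. These comparisons with all genes were not matched for expression level, and the members had the higher median TPM. Of the alpha chains 10 of 16 tested passed, of the beta chains 2 of 7, of the plaque proteins 5 of 15, and Itgbl1 passed as well, against 23.2% of all genes. Among those with at least 3000 reads the counts were 9 of 9, 1 of 2 and 4 of 12, against 39.9% of all such genes, and no difference between these families was tested.

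**Figure D3:**
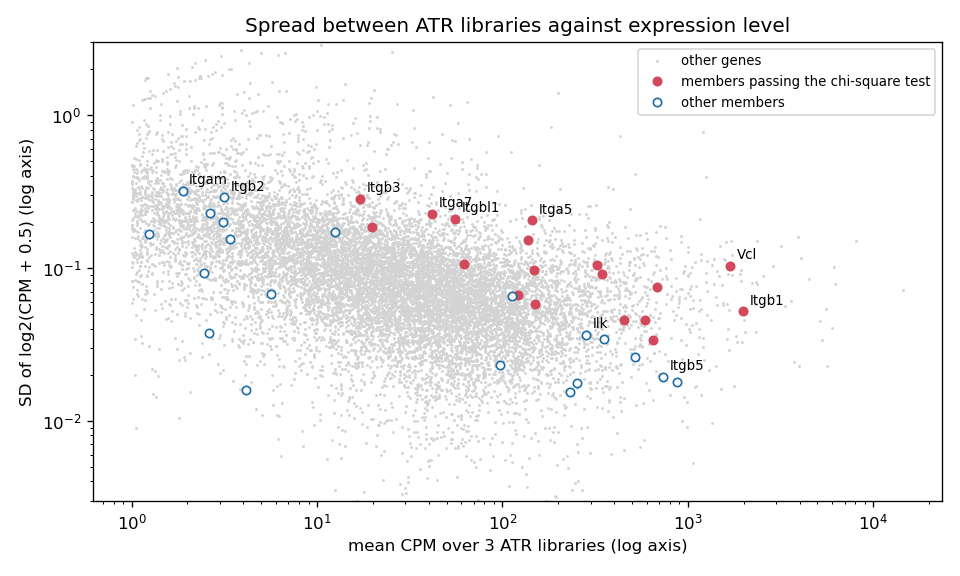
SD of log2(CPM + 0.5) over the 3 ATR libraries (y, log axis) against mean CPM (x, log axis) for all genes averaging 1 CPM or more. Members that passed the chi-square test (filled) lie at the upper side of the cloud or at high read numbers, and the median SD of the members is 0.083 against 0.082 over all genes.

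Among the members that passed, the largest ratios belonged to Itgb3, Itga7, Itgbl1 and Itga5. Itgb3 had 258, 378 and 338 reads in ATR 1, ATR 2 and ATR 3, a ratio of ATR 2 to ATR 1 of 1.49 (exact 95% interval 1.27 to 1.75, counting error only) with a chi-square adjusted p of 4.7e-05. It was lowest in ATR 1, and without that library the adjusted p was 0.315. Itga5 was lowest in ATR 1 too, with a ratio of ATR 3 to ATR 1 of 1.32 (1.25 to 1.39) and an adjusted p of 4.8e-22. It passed in every pair of libraries, with adjusted p up to 0.0415 (without ATR 1).

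Itga7 had a ratio of ATR 1 to ATR 2 of 1.37 (1.24 to 1.52) and a chi-square adjusted p of 3.4e-08, and it also passed in every pair, narrowly so without ATR 1 (adjusted p = 0.0499). Itgbl1 had 57.9, 42.9 and 52.7 TPM in ATR 1, ATR 2 and ATR 3, with a ratio of ATR 1 to ATR 2 of 1.32 (1.21 to 1.45) and an adjusted p of 1.7e-08. It did not pass without ATR 2, with an adjusted p of 0.328.

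The most common pattern was high in ATR 1 and low in ATR 2. It was shown by 8 of the 18 members that passed: Vcl, Itgb1, Itgav, Itga2, Itga6, Itga7, Itgbl1 and Tns1. The share of this joint pattern among all genes that passed was not counted, and the shares below are for single libraries. ATR 1 was the highest library for 11 of the 18 (61.1%), against 35.6% of the 3087 genes that passed, and ATR 2 was the lowest for 10 (55.6%), against 36.5%. Vcl stood out by its read number, with 33675, 29074 and 33167 reads, a ratio of ATR 1 to ATR 2 of 1.14 (1.12 to 1.16) and a chi-square adjusted p of 1.9e-66. Itgb1 had a ratio of 1.07 (1.05 to 1.08) and an adjusted p of 6.8e-20. Both rested on ATR 2: without it the adjusted p was 0.23 for Vcl and 0.851 for Itgb1. Without ATR 2 the call was lost as well for Itga6 (adjusted p = 0.0701), Itga1 (0.296) and Itga9 (0.837).

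ATR 1 decided other calls. Without ATR 1 the chi-square adjusted p was 0.641 for Tns1, 0.615 for Itgav, 0.557 for Itga8 and 0.854 for Itga3. Without ATR 3 it was 0.796 for Ptk2, which was 1.14 (1.099 to 1.18) times higher in ATR 3 than in ATR 1, and 0.832 for Tln2, for which that ratio was 1.28 (1.11 to 1.48). Itga2, Itga11 and Bcar1 each lost the call without either of 2 libraries. The counts of Itgb1, Itgb5, Itga2, Itga4, Itga9, Itga11, Itgb2, Itgax and Itgad were not whole numbers, so reads of these genes may be shared with others and their differences are less certain.

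The members that did not pass included the inner core. None of Ilk, Parva and Lims1 passed, with ratios of highest to lowest of at most 1.05. Neither did Itgb5 (ratio 1.03, 95% interval 1.00 to 1.05), Tln1 (1.02, 1.00 to 1.05), Fermt2 (1.05, 1.01 to 1.08) or Zyx (1.03, 1.01 to 1.06). Those intervals allow for counting error only, and not for the choice of the extreme libraries after their values were seen. An interval above 1 is therefore no test result. Itgam, with 26, 45 and 36 reads, had a ratio of 1.76 (1.06 to 2.97) and an adjusted p of 0.188, so its libraries could not be separated at this depth. Itga10, Itgb7 and Itgad had too few reads to be tested.

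**Figure D4:**
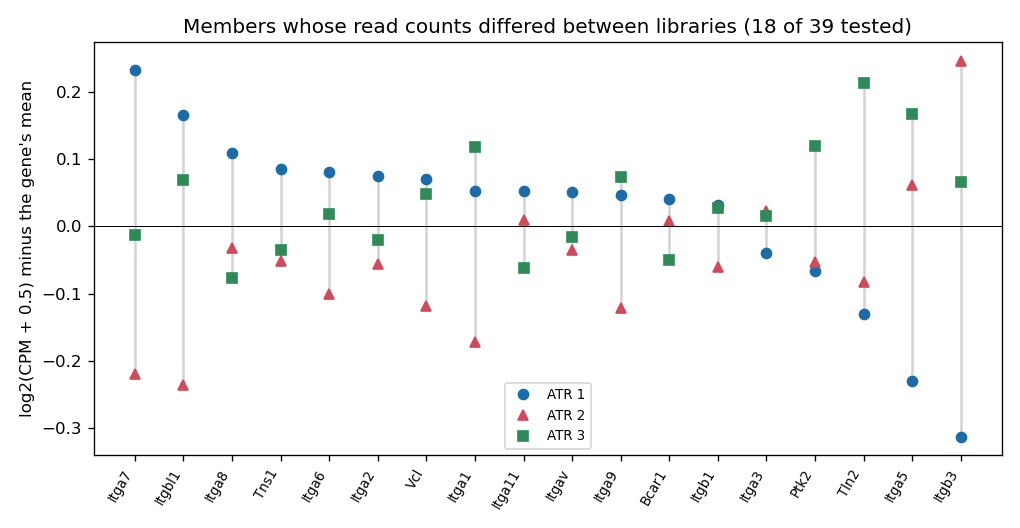
Deviation of log2(CPM + 0.5) from the gene's mean (y) in ATR 1, ATR 2 and ATR 3 for the 18 members that passed the chi-square test (x, ordered by the value in ATR 1). Itga7 and Itgbl1 at the left are highest in ATR 1 and lowest in ATR 2, and Itga5 and Itgb3 at the right are lowest in ATR 1.

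Marker lists of other cells moved between the same libraries. Of 8 measured stromal fibroblast markers all had at least 1 TPM, and their sum was 741.5, 774 and 779.8 TPM in ATR 1, ATR 2 and ATR 3. Its genes did not move as one. Of 8 tested 7 passed, against 23.2% of all genes. Thy1, Pdgfra, Prrx1, Lum and Gsn were lowest in ATR 1, as the members Itga3, Itga5, Itgb3, Ptk2 and Tln2 were. In contrast, Col14a1 (332.7, 266.6 and 305.1 TPM) and Ogn were highest in ATR 1. Of 7 measured smooth muscle and pericyte markers 6 had at least 1 TPM, with sums of 489, 487 and 439 TPM. Of 6 tested 4 passed, against 23.2% of all genes. Mcam and Myh11 were highest in ATR 1, and Cnn1 and Des were highest in ATR 2. Of 9 surface epithelium markers 6 had at least 1 TPM, with sums of 2305, 2146 and 2223 TPM. The order of these sums was that of Upk3b, which had 1513, 1316 and 1379 TPM, and without it the other 8 summed to 792, 830 and 844 TPM. Of 7 tested 5 passed, against 23.2% of all genes. Upk3b and Lrrn4 were highest in ATR 1 and lowest in ATR 2, Krt8 and Krt18 were lowest in ATR 1, and Msln was highest in ATR 2. Of 10 granulosa markers 8 had at least 1 TPM, with sums of 3177, 2877 and 2773 TPM. Of 8 tested 6 passed, against 23.2% of all genes. Foxl2, Fshr, Gata4, Gja1 and Inha were highest in ATR 1, and Inhba was highest in ATR 2. All of these but Gata4, lowest in ATR 2, were lowest in ATR 3. With at least 3000 reads, 3 of 3 stromal, 3 of 4 smooth muscle, 4 of 4 surface epithelium and 5 of 6 granulosa markers passed, against 39.9% of genes. Of 6 measured endothelial markers only Kdr reached 1 TPM, with list sums of 4.65, 4.13 and 4.42 TPM, and Pecam1 and Cdh5 had no reads in ATR 1. The part of cell mixture in the differences between libraries was not tested.

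The sequence before the start is given for 5 members. They were chosen because they passed the test both ways, with the chi-square unscaled and scaled to the median gene. They also have a single start in the promoter table of RefSeq (build GRCr8). Each line gives 250 bases that end just before the annotated start, with matches to the motifs below in capitals.
Itgbl1 (GRCr8 chr15:107186542-107186791, + strand): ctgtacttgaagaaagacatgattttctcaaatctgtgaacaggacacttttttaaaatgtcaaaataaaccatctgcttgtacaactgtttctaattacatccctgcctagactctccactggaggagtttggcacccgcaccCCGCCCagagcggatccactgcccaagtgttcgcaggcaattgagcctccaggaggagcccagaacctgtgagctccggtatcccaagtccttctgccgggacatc
Itga5 (GRCr8 chr7:136381306-136381555, - strand): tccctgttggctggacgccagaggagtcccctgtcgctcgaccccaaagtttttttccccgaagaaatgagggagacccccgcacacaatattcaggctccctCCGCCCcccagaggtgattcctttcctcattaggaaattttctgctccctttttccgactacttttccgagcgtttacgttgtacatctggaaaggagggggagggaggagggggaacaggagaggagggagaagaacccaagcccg
Itga1 (GRCr8 chr2:48545284-48545533, - strand): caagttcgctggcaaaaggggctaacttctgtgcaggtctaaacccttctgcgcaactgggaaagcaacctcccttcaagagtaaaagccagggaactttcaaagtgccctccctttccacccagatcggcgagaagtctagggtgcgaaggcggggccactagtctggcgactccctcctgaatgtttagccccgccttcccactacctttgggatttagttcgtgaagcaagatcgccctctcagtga
Vcl (GRCr8 chr15:3404801-3405050, - strand): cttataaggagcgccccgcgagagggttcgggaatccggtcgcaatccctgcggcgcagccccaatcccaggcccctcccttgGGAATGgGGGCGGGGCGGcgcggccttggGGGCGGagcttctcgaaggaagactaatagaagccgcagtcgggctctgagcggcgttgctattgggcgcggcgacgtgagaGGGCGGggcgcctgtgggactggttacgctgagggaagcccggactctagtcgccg
Itgb1 (GRCr8 chr19:73602027-73602276, + strand): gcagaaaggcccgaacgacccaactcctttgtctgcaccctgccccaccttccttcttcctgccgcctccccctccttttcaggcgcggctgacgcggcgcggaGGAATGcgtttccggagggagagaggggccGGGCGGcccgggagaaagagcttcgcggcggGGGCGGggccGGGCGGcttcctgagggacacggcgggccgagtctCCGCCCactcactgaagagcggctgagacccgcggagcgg
Itgb1, Vcl, Itgbl1 and Itga1 were lowest in ATR 2, and Itga5 was lowest in ATR 1. Itga6, Itga7, Ptk2 and Tns1 also passed both ways but have no entry in that table. Both strands were searched for the GC box GGGCGG, the M-CAT site CATTCC, which the partners of YAP and TAZ bind, the AP-1 site TGANTCA, the TATA box (letters TATAAA) and the CArG box of serum response factor. GC boxes were found in 17 of 31 members with an entry (54.8%), against 33.5% of 27457 genes. M-CAT sites were found in 6 members (19.4%), against 12.9% of genes. Each of the Vcl and Itgb1 windows held 4 GC boxes, of which a pair overlap in Vcl, and 1 M-CAT site. The Itgbl1 and Itga5 windows held 1 GC box each, and that of Itga1 held none of the motifs. A CArG box was found in 1 member, Itgb6 (3.23%, against 1.62% of genes), an AP-1 site in 1 (3.23%, against 6.99%) and a TATA box in 2 (6.45%, against 14.1%). The member windows were richer in G and C, with a median of 60.0%, against 51.2% over all windows. A match is a run of letters and not a shown binding site.

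Adhesion genes outside the 42 were followed in 3 lists. Of 54 adaptors, kinases and actin linkers, 52 had at least 1 TPM, with a median of 71.7 TPM, and 23 of 53 tested passed the chi-square test, against 23.2% of all genes. Of those with at least 3000 reads 18 of 39 did, against 39.9%. The actin crosslinkers Actn1 (1458 ± 49.8 TPM), Flna (1389 ± 41.9 TPM) and Actn4 (866 ± 20.8 TPM) led the list. Of these genes 2 passed with a ratio of at least 1.5: Parvb (beta-parvin), which had 6.08, 9.81 and 10.7 TPM in ATR 1, ATR 2 and ATR 3, and Parvg (gamma-parvin), which had 0.66, 0.68 and 1.38 TPM. Parva exceeded both in each library. Lims2, the paralogue of Lims1, had 61.6, 55.7 and 47.2 TPM in ATR 1, ATR 2 and ATR 3. It passed with a ratio of ATR 1 to ATR 3 of 1.28 (chi-square adjusted p = 1e-05).

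Of 32 regulators and surface partners, 31 had at least 1 TPM, with a median of 70.7 TPM, and 16 of 32 passed, against 23.2% of all genes. Of those with at least 3000 reads 12 of 19 did, against 39.9%. The tetraspanins, membrane proteins that group integrins, were highest: Cd151, a partner of the laminin receptors, at 2342 ± 24.6 TPM, Cd81 at 2237 ± 117 TPM and Cd63 at 1548 ± 49.3 TPM (SD, n = 3). Another tetraspanin, Tspan4, had 46.1, 118.5 and 49.3 TPM and was high in ATR 2 alone, with a ratio of ATR 2 to ATR 1 of 2.62 and a chi-square adjusted p of 6e-127. Thy1, a surface glycoprotein that binds integrins in trans and also stands in the stromal list, had 23.2, 104 and 82.7 TPM, lowest in ATR 1 (ratio 4.64, adjusted p = 8.5e-159). Plaur, the urokinase receptor that binds integrins in cis, had 38.7, 62.1 and 51.8 TPM (ratio 1.64, adjusted p = 8.6e-13), lowest in ATR 1.

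Of 42 measured matrix and surface ligands, 34 had at least 1 TPM, with a median of 60.2 TPM, and 28 of 36 tested passed, against 23.2% of all genes. Of those with at least 3000 reads 20 of 24 did, against 39.9%. The highest were fibronectin (Fn1), which had 3848, 3635 and 3986 TPM in ATR 1, ATR 2 and ATR 3, thrombospondin 1 (Thbs1), which had 3443, 3674 and 3704 TPM, and the collagen I chain Col1a1, which had 2596, 3062 and 2996.5 TPM. The ligands of the leading receptors, named here after their values were seen, were present with them. For the laminin receptor chains Itga3, Itga6 and Itga7, the laminin chains Lama5, Lamb1, Lamc1 and Lamb2 stood at 173 ± 12.9, 229 ± 0.642, 184 ± 0.486 and 140.2 ± 14.3 TPM (SD, n = 3). For the Arg-Gly-Asp receptors, osteopontin (Spp1) had 623, 678 and 725 TPM in ATR 1, ATR 2 and ATR 3, and Mfge8 had 1294, 1358 and 1300.1 TPM. Vcam1, a ligand of the Itga4 chain, stayed below 1 TPM, as did the fibrinogen genes Fga, Fgb and Fgg. The ligands that passed with the largest levels among those with a ratio of at least 1.5 were Col1a2, Col3a1 and Lama4. Col1a2, the other collagen I chain, had 287 TPM in ATR 1, 801 TPM in ATR 2 and 601 TPM in ATR 3. Col3a1, the chain of collagen III, had 418, 704 and 523 TPM, and Lama4, a laminin chain of vessels and mesenchyme, had 7.78, 18.7 and 15.2 TPM. These 3 genes were lowest in ATR 1 and highest in ATR 2.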

How the data were processed

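Polyadenylated RNA of the ATR libraries was sequenced as pairs of reads on an MGI2000, per the labels' protocols. The authors deposited, per the file headers, TPM values and estimated counts of reads for every gene. Tools named in the submitters' processing notes are fastp 0.20.1, HISAT2 2.2.1 and StringTie 2.1.5, with the builds Rnor_6.0 and GRCm38, but no role is given for any of them. No source used here says how reads shared by genes were divided. Between 19.0% and 19.2% of the counts of a library lie 0.001 or more from a whole number, and all were rounded for testing. All 42 member identifiers matched the RefSeq table (GRCr8), which supplied names and promoter sequences.

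Libraries were scaled with TMM (edgeR 4.0.16, R 4.3.3). With 1 group no contrast could be fitted, so spread between libraries was tested by a chi-square test on all genes with at least 30 reads, with Benjamini-Hochberg adjustment, and the code was tested on simulated counts. Ratios compare the highest with the lowest library, picked after their values were seen, so they cannot fall below 1. Their exact (Clopper-Pearson) 95% intervals cover counting error only and do not allow for that choice. DESeq2 1.42.0 gave alternative size factors. Python 3.11.15, numpy 2.4.6, pandas 2.3.3, scipy 1.17.1 and matplotlib 3.10.9 were used. Every member is accounted for. Values in each library are given for those with at least 5 TPM. From the other lists, values are given for the 3 highest, for up to 3 that passed with a ratio of at least 1.5, and for some related genes. Members and lists were chosen with earlier results of these data known.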

Additional observations from a re-analysis of the deposited data

How the results depend on the processing

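No paired analysis was possible because ATR columns alone were analysed, and for the same reason the planned contrast of ATR against Control was not run. The 18 of 39 members varying beyond counting noise, against 3087 of 13309 genes, became 21 with library totals (3167 genes) and 18 with DESeq2 size factors (3080 genes). With no minimum of reads 17 of 42 members passed (3063 of 17485 genes), and with at least 100 reads 18 of 37 (2948 of 11954 genes). Among genes with whole counts 14 of 31 members passed (2125 of 10156 genes). With 1 library left out, 11 to 15 of 38 members passed, and the count over all genes, 3087, was then 1528 to 2230. A test on 2 libraries has fewer reads. With the chi-square scaled to the median gene, an alternative chosen after seeing the data, 9 of 39 members and 1077 of 13309 genes passed. Library totals in place of TMM added Ilk, Src and Zyx (adjusted p = 0.0333, 0.022 and 0.0207), and Itga11 was lost with no minimum of reads (0.0589).

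The 37 members at 1 TPM or more were 38 at 0.5 TPM, 26 at 5 TPM, 38 at 1 CPM, and 36 to 37 with a library left out. Their share of all TPM, 0.558%, was 0.55% to 0.565% with a library left out and 1.11% in reads, which are not corrected for length. The Itgb1 share of beta subunits, 71.9%, was 71.5% to 72.5% with a library left out and 71.9% in reads. The median SD of members, 0.083, was 0.051 to 0.064 when libraries were left out in turn (lowest without ATR 1) and 0.067 to 0.087 under other pseudocounts and filters. At 18677194 to 19170515 reads per library, subunits near 1 TPM rest on few reads and could not be ordered by library.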
